A study of Mus musculus with 2 samples.

Results

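The genes described here are 56 genes of mitosis, those of the spindle, the kinetochore, the chromosome scaffold and cytokinesis, as measured in the main subsets of conventional dendritic cells (DCs) of mouse spleen. Only probe sets annotated to a single gene were used, and the brightest of each gene by the mean of both arrays stood for it. Of the 56 genes, 55 had such a probe set, out of 18194 genes on the array. Ccnb1, which encodes cyclin B1, had none and was not analysed here. The expression values came from CD8+ DCs and CD8- DCs, each measured on 1 Affymetrix array as a log2 signal. Both populations were unstimulated CD11c+ cells lacking CD3 and B220, sorted with or without CD8α from the spleens of C57BL/6 mice. The mice had carried B16 melanoma cells making Flt3L, the cytokine that drives DC growth, for 10 to 12 days, so both groups are DCs of tumour-bearing, Flt3L-exposed animals. The sources used here do not give the age or number of the mice, or say whether their cells were pooled.

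Mitosis begins when Cdk1, bound to cyclins, drives chromosome condensation and spindle assembly. Kinetochores, protein assemblies on the centromeres, attach the chromosomes to spindle microtubules, and the spindle checkpoint holds back the anaphase-promoting complex until all are attached. Most genes of this machinery are transcribed late in the cell cycle, so their RNA in a tissue is widely used as a sign of dividing cells. Conventional DCs in spleen arise from blood-borne precursors and go on dividing there to a limited extent, and Flt3 signalling supports this. Much of the periodic transcription acts through a promoter element called CHR, whose core word is TTTGAA, bound by the DREAM and MuvB complexes, and through CCAAT boxes bound by the factor NF-Y.

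Promoter sequence was held for 47 of the 56 genes in the RefSeq table (build GRCm38.p6), as windows of 300 bases, 250 before the gene start and 50 from it on. The sequences below show the span from 120 bases before the start to the 30 bases that begin with it, for the 6 members with the largest difference between the arrays whose span held TTTGAA. Pttg1 and Plk4 follow as the members with the smallest differences, chosen after their values were seen. Capitals mark TTTGAA and CCAAT on either strand (TTCAAA and ATTGG on the printed one). Espl1 is at chr15:102296173-102296322 (+), Prc1 at chr7:80294331-80294480 (+), Anln at chr9:22389177-22389326 (-), Cenpf at chr1:189688057-189688206 (-), Ttk at chr9:83834569-83834718 (+), Ect2 at chr3:27153825-27153974 (-), Pttg1 at chr11:43425952-43426101 (-) and Plk4 at chr3:40799831-40799980 (+). Where RefSeq lists several starts, the window with the lowest coordinate is shown.
Espl1: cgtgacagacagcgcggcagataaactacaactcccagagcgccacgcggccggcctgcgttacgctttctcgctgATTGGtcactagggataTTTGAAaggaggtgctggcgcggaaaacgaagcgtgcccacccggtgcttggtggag
Prc1: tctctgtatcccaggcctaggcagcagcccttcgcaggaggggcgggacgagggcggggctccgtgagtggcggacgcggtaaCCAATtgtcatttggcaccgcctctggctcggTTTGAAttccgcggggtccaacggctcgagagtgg
Anln: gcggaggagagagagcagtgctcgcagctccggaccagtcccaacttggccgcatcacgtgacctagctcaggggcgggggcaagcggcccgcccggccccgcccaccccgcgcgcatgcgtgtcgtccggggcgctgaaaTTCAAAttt
Cenpf: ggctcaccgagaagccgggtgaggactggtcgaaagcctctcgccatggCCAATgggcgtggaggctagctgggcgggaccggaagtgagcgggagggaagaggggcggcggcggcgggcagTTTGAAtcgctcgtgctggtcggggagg
Ttk: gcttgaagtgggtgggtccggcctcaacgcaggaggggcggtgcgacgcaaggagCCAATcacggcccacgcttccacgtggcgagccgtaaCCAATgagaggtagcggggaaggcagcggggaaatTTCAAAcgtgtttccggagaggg
Ect2: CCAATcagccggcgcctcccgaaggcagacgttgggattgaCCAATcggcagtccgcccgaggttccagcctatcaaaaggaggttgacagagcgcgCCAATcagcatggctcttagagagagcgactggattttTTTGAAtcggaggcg
Pttg1: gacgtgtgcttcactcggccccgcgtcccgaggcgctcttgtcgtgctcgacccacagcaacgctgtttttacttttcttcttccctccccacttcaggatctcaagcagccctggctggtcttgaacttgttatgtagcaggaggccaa
Plk4: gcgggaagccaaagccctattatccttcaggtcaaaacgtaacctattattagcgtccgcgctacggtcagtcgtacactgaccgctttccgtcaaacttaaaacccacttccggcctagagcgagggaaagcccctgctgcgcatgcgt

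Positions are those of a word's first base in the direction of the gene. In Espl1, TTTGAA began 27 bases before the start and the inverted CCAAT box 44 bases before it. In Prc1 the words began 5 and 37 bases before the start. Cenpf and Ttk had TTTGAA just after the start (2 and 7 bases on) with CCAAT 71 bases before it in Cenpf and 65 and 28 bases before it in Ttk. The spans of Pttg1 and Plk4 held neither word. The other printed genes were picked for holding TTTGAA, so the printed set cannot show whether the words go with the differences. Haus8 and Nusap1, among the largest differences, lacked TTTGAA in their windows. Kif23, Bub3 and Cdc20, among the smallest, held both words. Over whole windows, TTTGAA on either strand was found for 31 of the 47 genes (66.0%), against 1329 of the 9252 measured genes with a window (14.4%) and 17.9% of all 32851 windows. CCAAT was found for 32 of 47 (68.1%), against 42.6% of measured genes and 37.4% of all windows. In the list of other mitosis genes described further on, 31 of 80 genes with a window held TTTGAA (38.8%) and 50 of 80 held CCAAT (62.5%), so the CCAAT share was near that of the members. Both words stood in the same window for 25 of the 47 genes (53.2%), against 5.72% of measured genes. The longer E2F-type words TTTGGCGC or TTTCGCGC were found for 3 of 47, namely Cdk1, Ncapd2 and Kif15 (6.38%, against 1.84% of measured genes and 0.813% of all windows). The words were searched on both strands, and TTTGAA and CCAAT overlapped at 1 place in the members' windows. A match is a string of letters and was not tested as a binding site.

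The matches were not spread evenly over the windows. The members' 52 windows belonged to 47 genes, and those of Prc1, Ect2 and Bub3 overlapped, so the same match can count more than once. A TTTGAA beginning within 50 bases of the start, on either side, was found in 30 of the members' 52 windows (57.7%), against 4.94% of all windows. A CCAAT beginning in the 100 bases before the start was found in 28 of 52 (53.8%), against 19.3% of all windows.

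**Figure D1:**
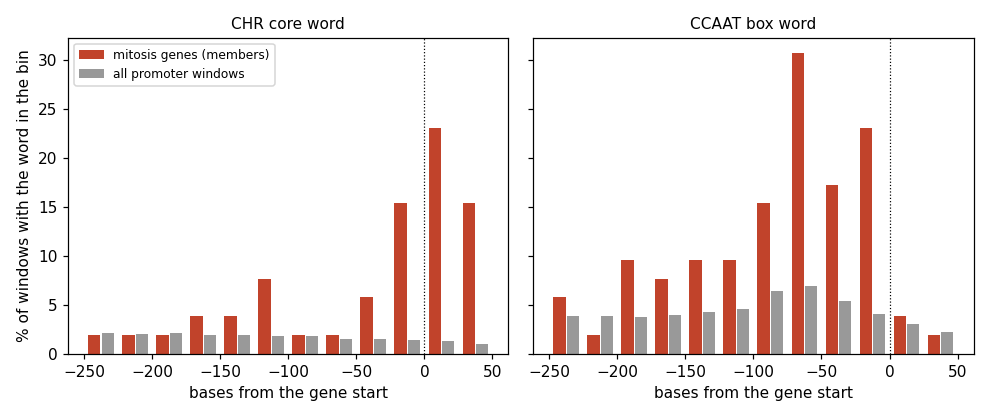
Share of promoter windows (vertical axis, %) holding TTTGAA (left panel) or CCAAT (right panel), on either strand, in bins of 25 bases by distance from the gene start, for the members' 52 windows (red) and all 32851 windows of the table (grey). TTTGAA peaks in the bin that begins at the start (23.1% of the members' windows, 1.31% of all), and CCAAT peaks in the bin from 75 to 51 bases before it (30.8% and 6.99%).

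The populations differed in the markers of their labels. Cd8a, part of the coreceptor used for sorting, was at 11.29 in CD8+ and 5.15 in CD8- DCs (log2 signal). With Cd8a, all 9 measured genes typical of CD8+ DCs were higher in CD8+ DCs, and all 9 typical of CD8- DCs were lower. Several CD8+ DC genes were nonetheless bright in CD8- DCs too, such as Irf8 (11.91 and 10.23), Xcr1 (10.88 and 8.45) and Batf3 (9.56 and 8.90). The brightest CD8- DC gene, Csf1r, was at 6.40 and 10.56. Of the conventional DC genes, H2-Aa (13.60 and 13.68), Flt3 (10.07 and 9.80) and Itgax (9.80 and 10.69) were bright on both arrays. With 1 array for each population no value has a replicate and no test was made, so a difference cannot be told apart from variation between mice, sorts or hybridisations. Differences are CD8+ minus CD8- on the log2 scale and are described by size, with 2-fold as the threshold, beside the same counts over all genes. A gene counted as measured where its higher value reached the median of all values, a log2 signal of 3.85, which 11404 genes did. The medians of the arrays differed by 0.03, and 7.30% of probe sets had identical values on both.

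Every one of the 54 measured mitosis genes was lower in CD8+ DCs than in CD8- DCs. Over all measured genes, 44.8% were lower in CD8+ DCs. The remaining gene, the kinesin Kif15, was below the floor on both arrays (3.34 in CD8+ and 3.17 in CD8- DCs), and the other 54 lay above it on both. The median difference was -1.03 (quartiles -1.26 and -0.70), so the typical signal in CD8+ DCs was 49.1% of that in CD8- DCs, whereas the median over all measured genes was 0.03. In CD8+ DCs 29 members (53.7%) were lower by at least 2-fold, against 5.97% of all measured genes, and no member was higher by that much, against 3.55%. Among the 7125 genes within the members' range of mean signal (5.50 to 10.49), 5.91% were lower by 2-fold. At 1.5-fold the count was 46 of 54, against 11.5% of all genes. The differences were of moderate size. At 3-fold 3 of 54 members remained, Espl1, Haus8 and Prc1, against 2.91% of all genes. None reached 4-fold, a size at which 2.10% of all genes were lower in CD8+ DCs. The genes were chosen with earlier results of these arrays known, in which cell cycle genes had been seen to be lower, so this shared direction is not independent evidence. In a bulk sample, fewer dividing cells and less of these RNAs per cell cannot be told apart.

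**Figure D2:**
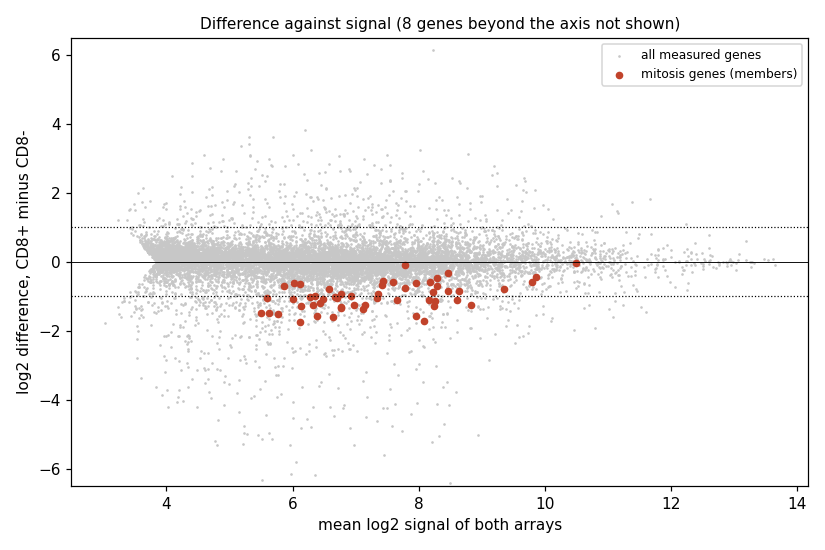
Log2 difference, CD8+ minus CD8- (vertical axis), against the mean log2 signal of both arrays (horizontal axis) for 11404 measured genes (grey) and the 54 measured mitosis genes (red). The dotted lines mark 2-fold. All red points lie below 0, between -1.74 and -0.05, with 29 at or below the lower line.

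The kinase and cyclins that start mitosis were lower in CD8+ DCs by different amounts. Ccna2, the gene of cyclin A2, which acts from S phase to early mitosis, had a signal of 7.59 in CD8+ and 8.88 in CD8- DCs, 2.44-fold higher in CD8-. Cdk1 itself was at 7.64 and 8.27, and its partner Ccnb2, cyclin B2, at 7.88 and 8.47, both nearer 1.5-fold. Of these 3, Ccna2 alone passed 2-fold, and its other probe set, almost as bright, differed by -0.95, just under the threshold. Among the genes of mitotic entry and the centrosome, Plk1, the polo-like kinase that acts from entry to cytokinesis, was at 5.77 in CD8+ and 6.79 in CD8- DCs. Aurka, Aurora A, which builds the spindle poles, was at 6.43 and 7.42, just under the threshold. Cdca3, which promotes the destruction of the Cdk1 inhibitor Wee1, was at 7.31 and 7.89. Plk4, which sets centriole duplication rather than mitosis proper, was nearly equal at 7.73 and 7.83, and its 3 probe sets lay on both sides of 0 (-0.24, -0.10 and 0.09).

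Of the 6 genes of the spindle checkpoint and its target, 3 were lower by at least 2-fold in CD8+ DCs. Ttk, the Mps1 kinase at the head of the checkpoint, was at 4.76 in CD8+ and 6.25 in CD8- DCs, a difference of -1.49. Bub1, a kinetochore kinase, was at 6.09 and 7.43. Bub1b, which encodes the Cdc20 inhibitor BubR1, was at 6.36 and 7.60. The other 3 genes differed by less. Mad2l1, whose product captures Cdc20, was at 8.05 and 8.89. Cdc20, the activator of the anaphase-promoting complex that the checkpoint restrains, was at 8.04 in CD8+ and 8.52 in CD8- DCs, and its 3 probe sets differed by -0.72, -0.48 and 0.06. Bub3, which brings Bub1 and BubR1 to kinetochores, was at 9.64 and 10.07.

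The chromosomal passenger complex, which corrects faulty attachments and later guides cytokinesis, has all of its 4 subunits among the members, and they differed by similar amounts (-1.12 to -0.85). Incenp, the scaffold, was at 8.05 in CD8+ and 9.17 in CD8- DCs. Aurkb, the kinase Aurora B, was at 6.18 and 7.24. These 2 passed 2-fold with their brightest probe set only. The others above the floor differed by -0.93, -0.89 and -0.66 for Incenp and by -0.85 for Aurkb. Cdca8 (borealin), which targets the complex to centromeres, was at 7.80 and 8.66, though a less bright probe set differed by -1.10, past 2-fold. Birc5 (survivin), which reads a histone mark there, was at 8.20 and 9.06. Over the brightest probe sets the range of the 4 subunits was 0.26, under the SD of 0.30 found between probe sets of the same gene across the array. For the members of other complexes described below, the range was larger. It was 0.36 for NDC80, 0.67 for condensin, 0.73 for centralspindlin and 1.14 for augmin.

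Of the 7 measured kinesin motors, 5 were lower by at least 2-fold in CD8+ DCs. Kif11 (Eg5), which pushes the spindle poles apart, was at 6.44 in CD8+ and 7.80 in CD8- DCs, and its 3 probe sets differed by -1.92 to -1.35. Kif2c, a microtubule depolymerase at centromeres, was at 5.50 and 6.77. Kif22, a motor on chromosome arms, was at 7.61 and 8.71. Kif20b (5.47 and 6.56) and the chromokinesin Kif4 (5.08 and 6.11) were close to 2-fold, and Kif20a, which carries the passenger complex to the midzone, was at 6.19 and 6.98. Kif23, the motor subunit of centralspindlin, differed least, at 8.30 in CD8+ and 8.61 in CD8- DCs. Its partner in centralspindlin, Racgap1, was at 6.82 and 7.86, so the differences of the pair were 0.73 apart.

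The spindle assembly genes and the cytokinesis genes held several of the largest differences. Prc1, which bundles the antiparallel microtubules of the midzone, was at 5.84 in CD8+ and 7.45 in CD8- DCs, 3.05-fold higher in CD8-. Nusap1, a microtubule-binding protein of the spindle near chromosomes, was at 7.18 and 8.74. Tpx2, the activator of Aurora A, was at 6.89 and 7.83, but its 3 probe sets above the floor disagreed, with differences of -1.63, -0.94 and 0.39. The 0.39 came from a faint probe set, at 4.06 in CD8+ and 3.67 in CD8- DCs, the latter below the floor. For cytokinesis, Anln (anillin), which organises the contractile ring, was at 5.60 in CD8+ and 7.17 in CD8- DCs, and Ect2, the exchange factor that activates RhoA there, was at 4.88 and 6.36. With Racgap1, all 3 genes of this group passed 2-fold.

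In the augmin complex, which seeds new microtubules on existing spindle microtubules, 1 of the 4 subunits among the members passed 2-fold. Haus8, the subunit that binds microtubules, was at 7.23 in CD8+ and 8.93 in CD8- DCs, 3.25-fold higher in CD8-. Haus1 (7.08 and 7.76), Haus4 (7.15 and 7.71) and Haus6 (5.73 and 6.33) differed by -0.68 to -0.56, and the range over the 4 subunits was 1.14. The other 4 subunits, taken from the list of further mitosis genes after their values were seen, differed by -0.96 (Haus5), -0.63 (Haus3), -0.21 (Haus2) and -0.09 (Haus7), so the complex as a whole was spread widely. Haus8 has 1 probe set, so the array holds no second reading of it.

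**Figure D3:**
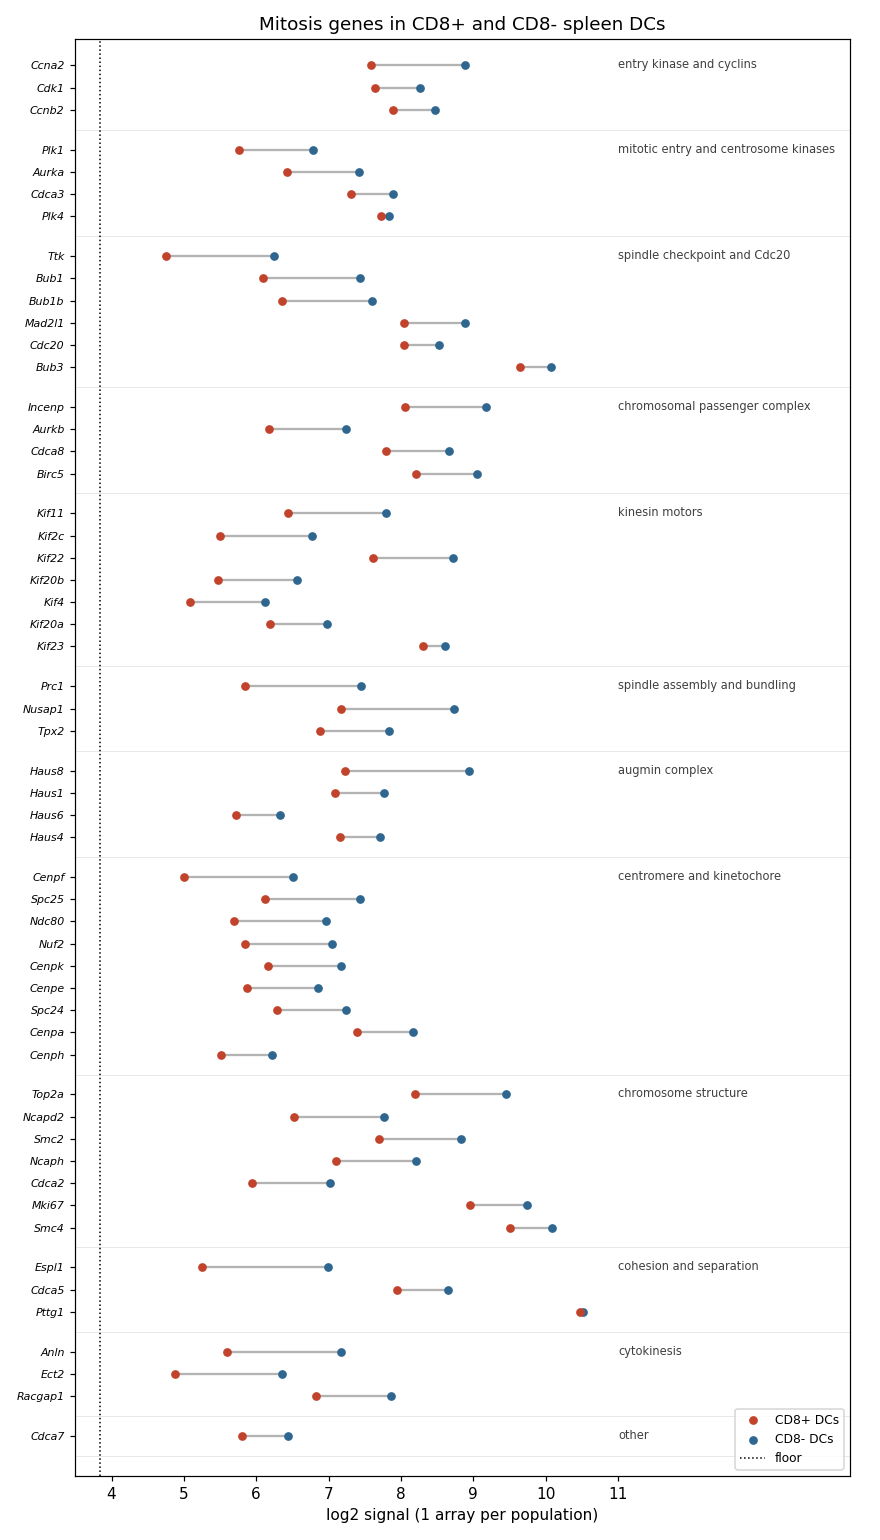
Log2 signal (horizontal axis) in CD8+ DCs (red) and CD8- DCs (blue), 1 array each, for the 54 measured mitosis genes, grouped by role and joined by a line per gene. The dotted line is the floor of 3.85. In each gene the red point lies to the left, and the points nearly coincide for Pttg1 and Plk4. Signals of different genes come from different probe sets and are not comparable.

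All 9 genes of the centromere and kinetochore were lower in CD8+ DCs, 5 of them by at least 2-fold. Cenpf, a large protein of the outer kinetochore, was at 5.01 in CD8+ and 6.51 in CD8- DCs, although 1 of its 3 probe sets, close to the floor, differed by only -0.12. The NDC80 complex, the main link between kinetochore and microtubule, differed by similar amounts in its 4 subunits (-1.31 to -0.94). Ndc80 was at 5.69 in CD8+ and 6.96 in CD8- DCs, and Nuf2, its partner at the microtubule-binding end, at 5.84 and 7.04. At the end facing the centromere, Spc25 was at 6.12 and 7.43 and Spc24 at 6.29 and 7.24. Of the inner kinetochore, Cenpk was at 6.17 and 7.18 and Cenph at 5.51 and 6.22. Cenpa, the histone H3 variant that marks the centromere, was at 7.39 in CD8+ and 8.16 in CD8- DCs, and the kinetochore motor gene Cenpe was at 5.87 and 6.86.

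Of the 7 genes of mitotic chromosome structure, 5 passed 2-fold. Top2a, the topoisomerase that untangles sister DNA, was at 8.20 in CD8+ and 9.45 in CD8- DCs. Smc2, an ATPase arm of condensin, was at 7.70 and 8.83. Ncaph, the kleisin that closes the ring of the arms, was at 7.10 and 8.21, and Ncapd2, a subunit bound to the kleisin, was at 6.52 and 7.77. Smc4, the partner of Smc2 in condensin, differed less, at 9.51 in CD8+ and 10.09 in CD8- DCs, and its 3 probe sets agreed closely (-0.59 to -0.50). Mki67, the gene of the proliferation marker Ki-67, was at 8.95 and 9.74, or 58.1% of its CD8- signal in CD8+ DCs. Cdca2, which brings protein phosphatase to chromatin at mitotic exit, was at 5.94 and 7.02, but its other probe set above the floor differed by only -0.61.

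The genes that hold and release sister chromatids held both the largest and the smallest difference of all members. Espl1, separase, the protease that cuts cohesin at anaphase, was at 5.25 in CD8+ and 7.00 in CD8- DCs, a difference of -1.74 (3.35-fold higher in CD8-). Its inhibitor Pttg1, securin, was at 10.47 and 10.52, and its 3 probe sets differed by -0.07 to -0.05. Cdca5 (sororin), which stabilises cohesion, was at 7.94 and 8.64. Cdca7, which acts with Hells in DNA methylation of centromeric repeats, was placed in none of these groups and was at 5.81 in CD8+ and 6.43 in CD8- DCs.

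Several probe sets for the same gene gave a view of technical spread within the pair of arrays. The members had 123 probe sets, of which 101 were above the floor and 97 of those were lower in CD8+ DCs. The 4 that were not belonged to Plk4, Cdc20, Tpx2 and Haus6, the last with equal values on both arrays. Those of Tpx2 and Haus6 were close to the floor. Of the 31 members with several probe sets above the floor, 27 had all of them lower in CD8+ DCs. Across the array, 3477 of 5183 genes with several had all of them on the same side of 0, in either direction. Around each member's own mean, the differences of its probe sets had a pooled SD of 0.35, against 0.30 over the 5183 genes of the array with several. This spread does not include variation between mice or sorts.

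**Figure D4:**
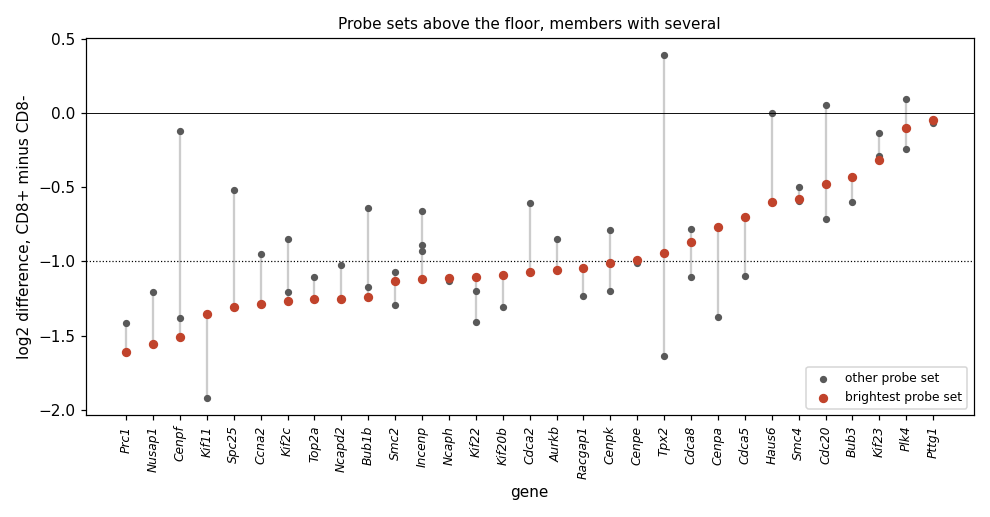
Log2 difference, CD8+ minus CD8- (vertical axis), of each probe set above the floor for the 31 members with several, ordered by the brightest probe set (red), with the others in dark grey. The dotted line marks 2-fold lower in CD8+ DCs. In 27 genes all points lie below 0, and Tpx2 has the widest range (-1.63 to 0.39), its highest point coming from a probe set close to the floor.

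The differences of members with and without the CHR core word overlapped. The 30 measured genes whose windows held TTTGAA had a median difference of -1.10 (range -1.74 to -0.32), and 19 of them were at least 2-fold lower in CD8+ DCs. The 15 whose windows lacked it had a median of -0.85 (range -1.70 to -0.05), and 6 were lower by that much. Haus8, Nusap1 and Bub1 lacked the word and were among the larger differences, while Kif23 held both words and was among the smallest.

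Other genes of the mitotic machinery, in a list of 98 of which 94 were measured, were mostly lower in CD8+ DCs too, by less. Of the 94, 88 were lower in CD8+ DCs and 6 higher, with 18 lower (19.1%) and 0 higher by at least 2-fold, and the median was -0.61. Aspm, a spindle pole protein, was at 4.81 in CD8+ and 6.58 in CD8- DCs. Esco2, which acetylates cohesin, was at 4.94 and 6.68. Iqgap3 was at 4.80 and 6.39, and the kinetochore gene Dsn1 at 5.03 and 6.63. Past 2-fold were also Ccnf, Bora, Sgo2a, Cks2, Kif18b, Fbxo5, Ckap2, Ncapg, Cenpl, Psrc1, Ncapd3, Kif18a, Sgo1 and Knl1. The subunits of the Mis12 complex, which joins NDC80 to the centromere, did not move together. Beside Dsn1, and chosen after their values were seen, Nsl1 was at 4.85 in CD8+ and 5.23 in CD8- DCs, Pmf1 at 7.79 and 7.55, and Mis12 at 6.73 and 6.31. Foxm1 (5.13 and 5.18) and Mybl2 (4.45 and 4.65), transcription factors that activate mitotic genes and chosen in the same way, differed little. The MuvB genes Lin54 (6.14 and 6.93) and Lin9 (3.82, just under the floor, and 4.54), also chosen in this way, differed more (-0.78 and -0.72).

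Genes of the preceding stages of the cycle were lower in CD8+ DCs as well. Of 52 measured DNA replication genes, 51 were lower in CD8+ DCs, 7 of them (13.5%) by at least 2-fold, with a median of -0.56. The transcription factor gene E2f2 was at 5.48 in CD8+ and 7.23 in CD8- DCs. Gins3, of the replicative helicase, was at 4.56 and 5.87. The polymerase delta gene Pold1 was at 7.01 and 8.20, and Uhrf1, which couples DNA methylation to replication, was at 6.91 and 8.08. Clspn, Gins1 and Prim1 were the other genes past 2-fold. Of 13 measured D cyclins, their kinases and the inhibitors and pocket proteins that check them, 12 were lower in CD8+ DCs and 1 (Cdkn2b) equal, 3 (23.1%) were lower by at least 2-fold, with a median of -0.86. Ccnd2, cyclin D2, was at 3.96 in CD8+ DCs, just above the floor, and 8.51 in CD8- DCs, 23.4-fold higher in CD8-, with probe sets at -5.12 to -1.92. Cdkn2d, a Cdk4 and Cdk6 inhibitor, was at 6.24 and 7.92, and Ccnd1 at 9.21 and 10.73. Ccnd3, the fourth largest difference of the list, was at 7.82 in CD8+ and 8.79 in CD8- DCs, under 2-fold. Thus genes that promote and genes that restrain G1 were both lower in CD8+ DCs. The differences between these lists were not tested.

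**Figure D5:**
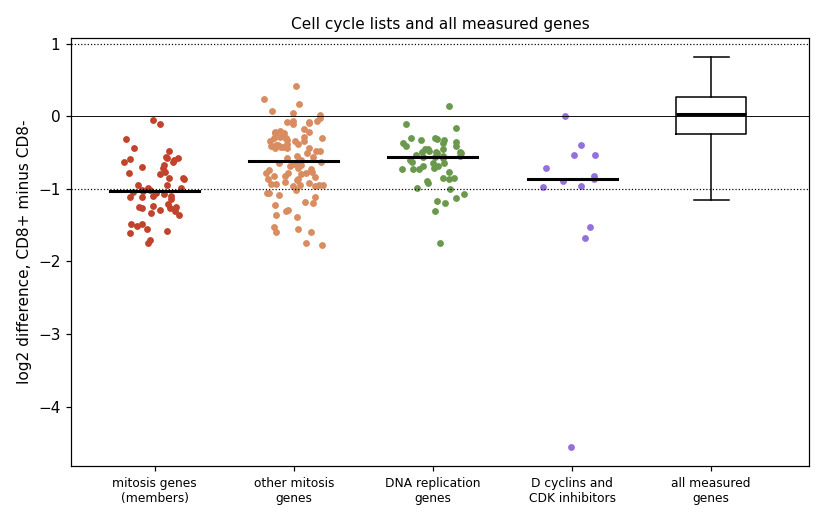
Log2 difference, CD8+ minus CD8- (vertical axis), of each measured gene in 4 cell cycle lists, with the median as a black bar, beside all 11404 measured genes as a box (quartiles and median, whiskers from the 5th to the 95th percentile). The medians are -1.03 for the members, -0.61 for other mitosis genes, -0.56 for DNA replication genes, -0.86 for D cyclins and CDK inhibitors, and 0.03 for all genes.

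Markers of other cells that could be dividing in such a spleen were read on the same arrays. Each list is given as the log2 of its summed signal, which serves only to set the same probe sets on 1 array against the other. The 7 B16 melanoma genes summed to 6.82 in CD8+ and 6.77 in CD8- DCs, slightly above the 6.65 that 7 genes at the floor would give. Of these genes, Tyr, Tyrp1, Dct and Mlana were below the floor on both arrays. The other 3 were above the floor on both, with Sox10 at 5.21 in CD8+ and 4.85 in CD8- DCs, Mitf at 4.69 and 5.08, and Pmel at 4.40 and 4.30. Of 7 erythroid precursor genes on the array, 5 were below the floor on both, and the sum was 6.31 in CD8+ and 5.97 in CD8- DCs. The 7 T cell genes summed to 6.33 and 6.60. For both of these lists 7 genes at the floor would give 6.65, so neither sum stood above background. The 2 T cell genes above the floor were Cd5 (3.95 in CD8+ and 4.87 in CD8- DCs) and Cd3e (4.76 and 4.90). The 6 NK cell genes (5.79 and 5.63) and the 6 monocyte and neutrophil genes (6.03 and 5.89) were likewise under the 6.43 that 6 genes at the floor would give.

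The macrophage, B cell and early progenitor lists had higher sums in CD8- DCs, as the mitosis genes did. The 8 macrophage genes summed to 6.93 in CD8+ and 8.86 in CD8- DCs, with Adgre1 at 4.63 and 8.22. C1qa, C1qb and C1qc were also higher in CD8- DCs and Vcam1 was higher in CD8+ DCs (5.52 and 4.66), with Spic, Mertk and Cd163 below the floor on both arrays. The 7 B cell genes summed to 6.93 in CD8+ and 7.58 in CD8- DCs, and their members went both ways. Cd79b was at 3.28 in CD8+ and 6.59 in CD8- DCs and Blk at 4.30 and 4.60, while Ms4a1 was higher in CD8+ DCs (5.74 and 4.99), and Cd79a, Pax5, Ebf1 and Cr2 were below the floor on both. The 5 early progenitor genes summed to 8.83 in CD8+ and 9.15 in CD8- DCs. Kit was at 8.53 in CD8+ and 8.86 in CD8- DCs, Sox4 at 4.51 and 5.24, and Myb at 5.60 and 5.48, with Cd34 and Cd93 below the floor on both. The 5 probe sets of Sox4 above the floor disagreed, with differences from -4.93 to 0.07. The 8 plasmacytoid DC genes had nearly equal sums (9.24 and 9.22), with Tcf4 higher in CD8- DCs (5.47 and 7.55) and Ccr9 higher in CD8+ DCs (8.03 and 5.94). The part of the macrophage, B cell and early progenitor genes in the mitosis result was not tested.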

How the data were processed

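Total RNA of each population was labelled with biotin and hybridised to 1 Affymetrix array. The deposited values are log2 signals of 45101 probe sets, made by the authors with RMA (background correction, quantile normalisation, median polish), per the submitters' processing notes. Neither the version of RMA nor which arrays were normalised as one set is stated in the sources used here. Quantile normalisation would hide a shift shared by most transcripts. Of the probe sets, 34958 had 1 gene symbol in the platform annotation, 932 several and 9211 none. Symbols were updated by gene identifier through the RefSeq table of GRCm38.p6.

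Differences, counts, the floor and the promoter searches were computed with Python 3.11.15, numpy 2.4.6 and pandas 2.3.3. The calculation of differences was tested on simulated array values, which did not cover the promoter searches. Every member was accounted for. From other lists, the 4 largest differences and all genes past 2-fold were named. The members and lists were chosen with earlier results of these data known. Alternatives were median centring, a lowess trend (statsmodels 0.14.6, span 0.3), other floors, other choices of probe set and other thresholds. The number of arrays limits the precision. Files give no genome build, so coordinates are those of the RefSeq promoter table.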

Additional observations from a re-analysis of the deposited data

How the results depend on the processing

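All 4 cell cycle lists kept a median below 0 under the alternatives tried. The median over the mitosis genes lay between -1.06 (arrays centred on their medians) and -0.90 (all probe sets of a gene averaged). The count lower by 2-fold in CD8+ DCs was 19 of 53 with all probe sets averaged, against 5.37% of all genes. It was 46 and 3 of 54 with thresholds of 1.5-fold and 3-fold, against 11.5% and 2.91%. With the other settings it lay between 24 of 48 (probe set with the second highest mean, against 5.92% of all genes) and 31 of 54 (arrays centred on their medians, against 6.28%). No member was higher by 2-fold in any setting. Over 8 settings, 413 of 416 values of single members were below 0. The exceptions came from the probe set with the second highest mean (2 values) and from leaving out probe sets named _x_at, _s_at or _a_at (1 value). These values are not separate readings. The settings that only changed the filter or the floor could not alter any member's value. Members with 1 probe set also kept their value when the choice of probe set changed, so the count says little about robustness. With all probe sets averaged, the median of the D cyclins and CDK inhibitors was -0.56. On the sense strand alone, CCAAT was found for 44.7% of members, against 25.1% of measured genes, by construction fewer matches. No paired analysis was possible because each population has 1 array, and no replicate could be left out. Signals near the floor understate differences, and neither mouse nor sort variation could be measured.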
